A study of Mus musculus with 12 samples.

Results

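The genes described here are 29 mouse genes of sterol and fatty acid synthesis, measured by RNA-seq in endothelial cells sorted from the ventricles of embryonic hearts. They were chosen by symbol: the rows of the deposited count table whose Ensembl identifiers carry the 29 gene names were taken, and all 29 were found among 41214 rows and passed the filter on low counts, which kept 15171 genes. Of these genes, 6 encode enzymes of the mevalonate steps, 11 encode enzymes from squalene through the sterol ring, 4 act in sterol sensing or transport and 8 act in fatty acid synthesis, elongation or desaturation.

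The study comprised 12 libraries in 4 groups: coronary and endocardial cells at E17 with 2 libraries each, and coronary and endocardial cells at E13 with 4 libraries each. The E17 embryos, taken at E17.5, carried Nes-Gfp, a transgene that places GFP under Nestin regulatory sequence, together with Nes-CreER and 1 R26 Tomato reporter allele, and received 0.1 µg tamoxifen at E15.5. E17 endocardial cells were gated as CD31-positive and GFP-positive, while the design text describes both an arterial and capillary gate (GFP-positive, Emcn-low, Tomato-positive) and a venous gate (GFP-low, Emcn-low, Tomato-negative) for coronary cells and the labels do not say which the E17 coronary libraries came from. The E13 embryos, taken at E13.5, carried 1 copy of Nes-gfp. From them, viable cells lacking Ter119 and CD45 and bearing CD31 were sorted, coronary cells as GFP-positive and endocardial cells as GFP-low with high Emcn. Stage therefore changed together with genotype, tamoxifen, gate and batch, and these cannot be told apart in any comparison of E17 with E13. Each batch held 1 coronary and 1 endocardial library of 1 stage. Whether the replicates are separate litters is not stated, so the p-values measure only how far these libraries spread, which may be technical.

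Cells build cholesterol from acetyl-CoA by way of mevalonate, isoprenoid pyrophosphates, squalene and a long series of changes to the sterol ring. Fatty acid synthesis starts from the same acetyl-CoA pool, with citrate lyase and acetyl-CoA carboxylase feeding fatty acid synthase, whose product is then elongated and desaturated. Both branches are textbook targets of the SREBP transcription factors: when membrane sterol is low, SCAP carries SREBP out of the endoplasmic reticulum to be cleaved, and when it is high, INSIG proteins hold the complex back. Growing endothelium needs membrane lipid for new cells, while endothelial cells can also take up lipid from plasma lipoproteins.

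Library totals ran between 14973633 and 27360653 expected counts. Levels are given as CPM, counts scaled to a common library total after TMM normalization. Differences are log2 fold changes from edgeR's quasi-likelihood test, called at an adjusted p under 0.05 over the 15171 genes tested. The standard error given with them was derived, as the absolute log2 fold change divided by the square root of the test's F statistic. Each difference is the first group named minus the second. Pan-endothelial genes (Pecam1, Cdh5, Kdr, Tek, Tie1, Egfl7, Emcn) summed to 9943 to 11190 CPM in E17 coronary libraries, against 7941 to 8347 CPM in E17 endocardial libraries. At E13 these sums were 5103 to 6912 CPM in coronary and 7929 to 8838 CPM in endocardial libraries. Emcn and CD31, which Pecam1 encodes, were used in the sort, so the gates bear on these sums and on later counts of these genes. Genes of other cells were present, and no fibroblast, mural or epicardial marker was at 0 in any library. The 8 fibroblast markers summed to 2172 and 4792 CPM in E17 coronary libraries, against 2211 and 2453 CPM in E17 endocardial libraries, and to 2630 to 6979 CPM in E13 coronary libraries, against 1822 to 2052 CPM in E13 endocardial libraries. The 7 mural markers summed to 797 to 996 CPM in E17 coronary and 158 to 161 CPM in E17 endocardial libraries, and to 347 to 638 CPM in E13 coronary and 181 to 200.4 CPM in E13 endocardial libraries. The 5 epicardial markers summed to 159 to 161 CPM in E17 coronary and 10.6 to 13.4 CPM in E17 endocardial libraries, and to 79.5 to 92.0 CPM in E13 coronary and 6.72 to 11.9 CPM in E13 endocardial libraries. The 5 leukocyte markers summed to at most 19.48 CPM in any library, and 1 of them, Ptprc, was at 0 in both E17 coronary libraries. Libraries differed within groups as well. E13 coronary replicate 3 held the highest fibroblast sum (6979 CPM) and the lowest pan-endothelial sum (5103 CPM), and it was the lowest of its group for 20 of the 29 genes and the highest for 0. E13 coronary replicate 1 stood at the other end, with a fibroblast sum of 2630 CPM, a pan-endothelial sum of 6912 CPM, the highest value of its group for 17 of the 29 genes and the lowest for 4. E17 endocardial replicate 1 was below replicate 2 for 25 of the 29. These orders of libraries were not counted over all genes. Results that turn on 1 library are given with and without it. In bulk RNA, fewer cells of a type and less RNA per cell cannot be told apart.

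**Figure D1:**
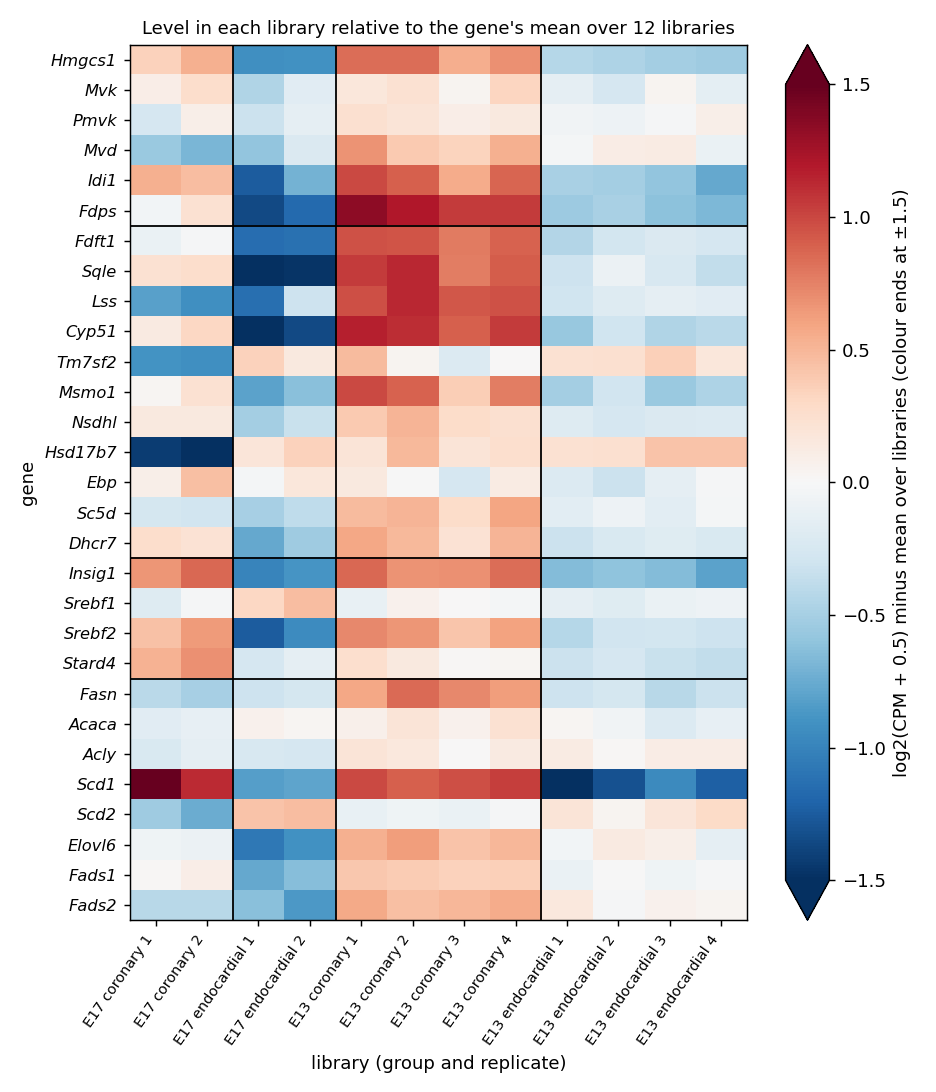
Heat map of the 29 genes (rows, by branch) in the 12 libraries (columns, by group). Colour gives log2(CPM + 0.5) minus the gene's mean over the libraries, red above and blue below it. Most rows of the mevalonate and sterol ring blocks are reddest in the E13 coronary columns and bluest in the E17 endocardial columns, while Hsd17b7 and Tm7sf2 are bluest in the E17 coronary columns.

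Start-site sequence was taken for 6 genes that stand for the patterns described below. Hmgcs1, Cyp51 and Msmo1 were higher in coronary cells at both stages, and Lss, Hsd17b7 and Fasn showed the largest falls of the coronary-minus-endocardial difference at E17 relative to E13. The sequences are the 200 bases before the RefSeq start site in GRCm38.p6, read 5′ to 3′ on the gene's strand. Capitals mark the motif letters searched on both strands: TCACNCCAC, a sterol regulatory element type sequence bound by SREBP; CCAAT, bound by NF-Y, a frequent partner of SREBP; and CACGTG, an E-box.
Hmgcs1: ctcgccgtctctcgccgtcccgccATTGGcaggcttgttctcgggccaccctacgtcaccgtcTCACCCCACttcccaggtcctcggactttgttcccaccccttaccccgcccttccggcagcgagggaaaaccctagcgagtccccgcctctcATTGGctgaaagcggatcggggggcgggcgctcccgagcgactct
Cyp51: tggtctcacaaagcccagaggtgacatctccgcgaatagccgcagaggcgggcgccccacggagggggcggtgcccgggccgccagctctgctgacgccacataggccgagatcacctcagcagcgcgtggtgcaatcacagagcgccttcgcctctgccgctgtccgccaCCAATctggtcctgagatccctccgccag
Msmo1: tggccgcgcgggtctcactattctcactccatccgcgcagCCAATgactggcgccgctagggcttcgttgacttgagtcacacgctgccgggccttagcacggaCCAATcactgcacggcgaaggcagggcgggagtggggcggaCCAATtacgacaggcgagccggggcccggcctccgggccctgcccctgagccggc
Lss: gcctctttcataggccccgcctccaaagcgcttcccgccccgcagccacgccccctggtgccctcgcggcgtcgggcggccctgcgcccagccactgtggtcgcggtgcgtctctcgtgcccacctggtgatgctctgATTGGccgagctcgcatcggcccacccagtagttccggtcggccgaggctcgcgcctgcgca
Hsd17b7: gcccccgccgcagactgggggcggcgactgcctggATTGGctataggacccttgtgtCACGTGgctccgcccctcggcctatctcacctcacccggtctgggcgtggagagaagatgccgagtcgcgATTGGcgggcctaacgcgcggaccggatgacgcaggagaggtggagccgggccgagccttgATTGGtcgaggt
Fasn: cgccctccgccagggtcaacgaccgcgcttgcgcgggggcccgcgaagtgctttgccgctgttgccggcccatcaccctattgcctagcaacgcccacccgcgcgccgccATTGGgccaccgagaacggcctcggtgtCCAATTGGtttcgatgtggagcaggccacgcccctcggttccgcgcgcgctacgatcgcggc
These windows lie at chr13:119690151-119690350 on the plus strand for Hmgcs1, chr5:4104698-4104897 on the minus strand for Cyp51, chr8:64733579-64733778 on the minus strand for Msmo1, chr10:76531405-76531604 on the plus strand for Lss, chr1:169969206-169969405 on the minus strand for Hsd17b7 and chr11:120824548-120824747 on the minus strand for Fasn. ATTGG is CCAAT on the other strand, and in Fasn the run CCAATTGG holds 1 match on each strand that share bases. RefSeq windows of 250 bases before to 50 after the start were at hand for 22 of the 29 genes (all but Fdps, Fdft1, Sqle, Stard4, Scd1, Scd2 and Fads1) and for 27025 genes in all. CCAAT was present in 19 of the 22, against 41.1% of all genes. CACGTG was present in 4 of the 22 (Dhcr7, Hsd17b7, Insig1 and Sc5d), against 8.09% of all genes. TCACNCCAC was present in 1 of the 22, Hmgcs1, against 1.44% of all genes. All 6 printed windows hold CCAAT. Whether any of the motifs goes with a pattern of expression was not tested. A match describes letters and is not evidence of binding. Only these exact letters were searched, so a window without a match may still hold a variant of the site.

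Levels differed widely between the genes. Per kilobase of the principal GENCODE transcript, Scd2, a stearoyl-CoA desaturase, and Acly, ATP citrate lyase, stood highest, at 88.7 and 64.2 CPM per kb in E13 coronary cells and 105 and 62.8 CPM per kb in E13 endocardial cells. Fdps, farnesyl pyrophosphate synthase, had 52.1 CPM per kb in E13 coronary and 15.3 CPM per kb in E13 endocardial cells, and Hmgcs1, cytosolic HMG-CoA synthase, had 44.4 CPM per kb in E13 coronary and 19.1 CPM per kb in E13 endocardial cells. Scd1 was the lowest of the 29 at E13, with 0.883 CPM per kb in coronary cells and 0.107 CPM per kb in endocardial cells, while in E17 coronary cells Lss was lower (0.749 CPM per kb, against 1.26 for Scd1). The mean was highest in the E13 coronary group for 22 of the 29 genes and for 14 of the 17 sterol enzymes. It was lowest in the E17 endocardial group for 18 of the 29 and for 12 of the 17. In 7 genes (Acaca, Fasn, Hsd17b7, Lss, Mvd, Scd2 and Tm7sf2) the lowest mean was in E17 coronary cells instead. The order of the group means was not counted over all genes tested, so these counts have no share to be set against.

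Sterol enzymes were higher in E13 coronary cells than in E13 endocardial cells. Of all genes tested, 60.0% passed the test in this comparison, 30.1% as higher in coronary cells and 29.9% as lower. Of the 29 genes, 22 were higher and 1 was lower, with a median difference of 0.59, against -0.02 over all genes tested. Among the 17 sterol enzymes 13 were higher and 0 lower (median 0.71), among the 4 sensing and transport genes 3 were higher and 0 lower, and among the 8 fatty acid enzymes 6 were higher and 1 was lower (median 0.44). Without E13 coronary replicate 3, 15 of the 17 sterol enzymes were higher, the added ones being Pmvk (0.24, edgeR adjusted p = 0.0461) and Ebp (0.28, edgeR adjusted p = 0.0397). Without E13 coronary replicate 1 the count was again 13.

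In the mevalonate steps, Fdps, which makes the farnesyl pyrophosphate that squalene is built from, showed the largest difference among sterol enzymes. It had 81.5, 73.97, 66.6 and 66.3 CPM in the 4 E13 coronary libraries, against 21.7, 22.6, 20.6 and 19.7 CPM in the 4 E13 endocardial libraries. The groups stood far apart, and the log2 difference was 1.77 ± 0.09 (edgeR adjusted p = 9.8e-09). Idi1, the isopentenyl pyrophosphate isomerase, averaged 55.7 ± 7.02 CPM in coronary and 20.4 ± 1.74 CPM in endocardial cells (SD, n = 4 each), a difference of 1.44 ± 0.12. Hmgcs1, the only one of the 22 genes with a promoter window to hold the TCACNCCAC motif, averaged 154 ± 14.8 CPM in coronary and 66.1 ± 2.18 CPM in endocardial cells (SD, n = 4 each), a difference of 1.22 ± 0.07. The remaining mevalonate enzymes differed less. Mvd, mevalonate diphosphate decarboxylase, was higher by 0.47 ± 0.11, and Mvk, mevalonate kinase, by 0.32 ± 0.10, with overlapping groups and no excess in batch 3. Pmvk, phosphomevalonate kinase, did not pass, at 0.19 ± 0.09 (edgeR adjusted p = 0.0735), although its 4 coronary libraries stood just above the 4 endocardial ones. It passed in the fit of the compared groups alone (adjusted p = 0.0197), with DESeq2's size factors (0.05) and without E17 coronary replicate 1 or 2 (0.0242 and 0.0424).

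Among the later enzymes, Cyp51, the lanosterol demethylase, had 70.5, 67.6, 58.04 and 64.9 CPM in E13 coronary libraries, against 20.9, 25.1, 22.5 and 23.4 CPM in E13 endocardial libraries. Every coronary library was above every endocardial one, by a difference of 1.51 ± 0.08 (edgeR adjusted p = 2.03e-08). Lss, the lanosterol synthase that closes the sterol ring, had 13.7, 15.55, 13.46 and 13.6 CPM in coronary libraries, against 5.41, 5.86, 6.15 and 6.01 CPM in endocardial libraries. Its groups did not overlap (1.27 ± 0.15, edgeR adjusted p = 1.55e-05). Sqle, squalene epoxidase, had 74.4, 79.3, 61.6 and 67.6 CPM in coronary libraries, against 28.8, 33.8, 30.2 and 27.7 CPM in endocardial libraries. Here too the groups were apart (1.23 ± 0.10). Fdft1, squalene synthase, Msmo1, the sterol C4-methyl oxidase, and Dhcr7, which makes cholesterol in the last step, were higher by 1.20 ± 0.06, 1.25 ± 0.12 and 0.71 ± 0.08. Nsdhl, the C4 decarboxylating dehydrogenase, and Sc5d, the sterol C5 desaturase, were each higher by 0.59 ± 0.08. Of the 11 genes of this branch, 3 did not pass. Hsd17b7, the C4 ketosteroid reductase, had 29.2, 35.9, 29.2 and 30.4 CPM in coronary libraries, against 29.9, 30.1, 34.3 and 34.4 CPM in endocardial libraries, with full overlap. Tm7sf2, a C14 sterol reductase, had 7.84, 5.72, 4.74 and 5.55 CPM in coronary libraries, against 6.58, 6.63, 7.25 and 6.30 CPM in endocardial libraries. Those ranges overlapped as well, and the differences were -0.04 ± 0.08 for Hsd17b7 (edgeR adjusted p = 0.665) and -0.17 ± 0.15 for Tm7sf2 (edgeR adjusted p = 0.344). Ebp, the sterol isomerase, stood at 0.18 ± 0.11 and did not pass with all libraries.

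Sensing genes differed from each other at E13. Insig1, which holds SCAP and SREBP in the endoplasmic reticulum and is itself an SREBP target, had 64.7, 56.8, 57.03 and 63.7 CPM in coronary libraries, against 22.3, 23.01, 22.3 and 20.04 CPM in endocardial libraries. The groups were widely apart (1.46 ± 0.07, edgeR adjusted p = 7.81e-09). Srebf2, which encodes the SREBP that mainly drives sterol genes, had 194, 186, 156 and 178 CPM in coronary libraries, against 87.1, 95.6, 96.9 and 94.4 CPM in endocardial libraries, again with no overlap (0.93 ± 0.08). Srebf1, whose products mainly drive fatty acid genes, had 66.5, 75.7, 72.3 and 70.8 CPM in coronary libraries, against 65.7, 63.4, 67.4 and 68.6 CPM in endocardial libraries. Those ranges overlapped and the gene did not pass (0.11 ± 0.06, edgeR adjusted p = 0.121), except without E13 coronary replicate 1 (0.17, adjusted p = 0.0256) and in the fit of the compared groups alone (adjusted p = 0.041). Stard4, a sterol carrier between membranes, had 113, 105, 95.5 and 96.4 CPM in coronary libraries, against 75.6, 79.02, 74.8 and 73.1 CPM in endocardial libraries, and was higher by 0.44 ± 0.06.

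Fatty acid enzymes were called in both directions. Fasn, fatty acid synthase, had 219.6, 264, 242 and 227 CPM in E13 coronary libraries, against 118, 122, 110.1 and 118 CPM in E13 endocardial libraries. Every coronary library was far above the endocardial ones (1.03 ± 0.06, edgeR adjusted p = 3.25e-08). Acaca, the acetyl-CoA carboxylase that commits carbon to this branch, had 55.5, 60.1, 54.9 and 61.98 CPM in coronary libraries, against 53.6, 50.7, 45.4 and 48.4 CPM in endocardial libraries. The gap between its groups was narrow (0.23 ± 0.06). Elovl6, an elongase of palmitate, had 32.4, 34.4, 30.1 and 31.6 CPM in coronary libraries, against 21.5, 24.4, 23.6 and 20.2 CPM in endocardial libraries (0.52 ± 0.07). Fads1, the delta-5 desaturase of polyunsaturated fatty acids, had 141, 139, 135 and 137 CPM in coronary libraries, against 99.3, 106, 102 and 106 CPM in endocardial libraries (0.42 ± 0.04). Both sets of groups were apart, and Fads2, the delta-6 desaturase, was higher by 0.46 ± 0.06. The stearoyl-CoA desaturases went opposite ways. Scd2 had 471, 487, 476 and 503 CPM in coronary libraries, against 580.3, 522, 578 and 620.1 CPM in endocardial libraries. It was the only one of the 29 genes called lower (-0.25 ± 0.06, edgeR adjusted p = 0.00318). Scd1 was far rarer, averaging 4.27 ± 0.189 CPM in coronary and 0.516 ± 0.185 CPM in endocardial cells (SD, n = 4 each), and had the largest difference of all at 3.06 ± 0.25. Acly did not pass (0.03 ± 0.05, edgeR adjusted p = 0.597).

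Of the 23 genes called at E13, 22 had groups that did not overlap, the exception being Mvk. Without overlap the direction must be the same in all 4 batches, and Mvk was the exception there too. The call rests on the same values, so neither count is separate support, and the share over all genes was not counted. Per batch, 16, 16, 13 and 15 of the 17 sterol enzymes were higher in the coronary library, with median log2 ratios of 0.90, 0.77, 0.49 and 0.75 for batches 1 to 4. Batch 3, the lowest, holds E13 coronary replicate 3. The share of all genes higher in the coronary library was not counted per batch. Genes of cell division moved with the same comparison: 10 of 12 cell cycle genes were called higher, and their summed level was 2553 to 2736 CPM in coronary libraries, against 1580 to 1904 CPM in endocardial libraries. Of the markers of other cells, 7 of 8 fibroblast, 6 of 7 mural and 4 of 5 epicardial genes were higher, and of the 4 glial and neural crest genes tested 3 were higher and 1 lower. Of the 4 leukocyte genes tested 1 was higher, and 7 of 7 pan-endothelial genes were lower. The part of cell division or of other cells in the lipid gene differences was not tested.

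**Figure D2:**
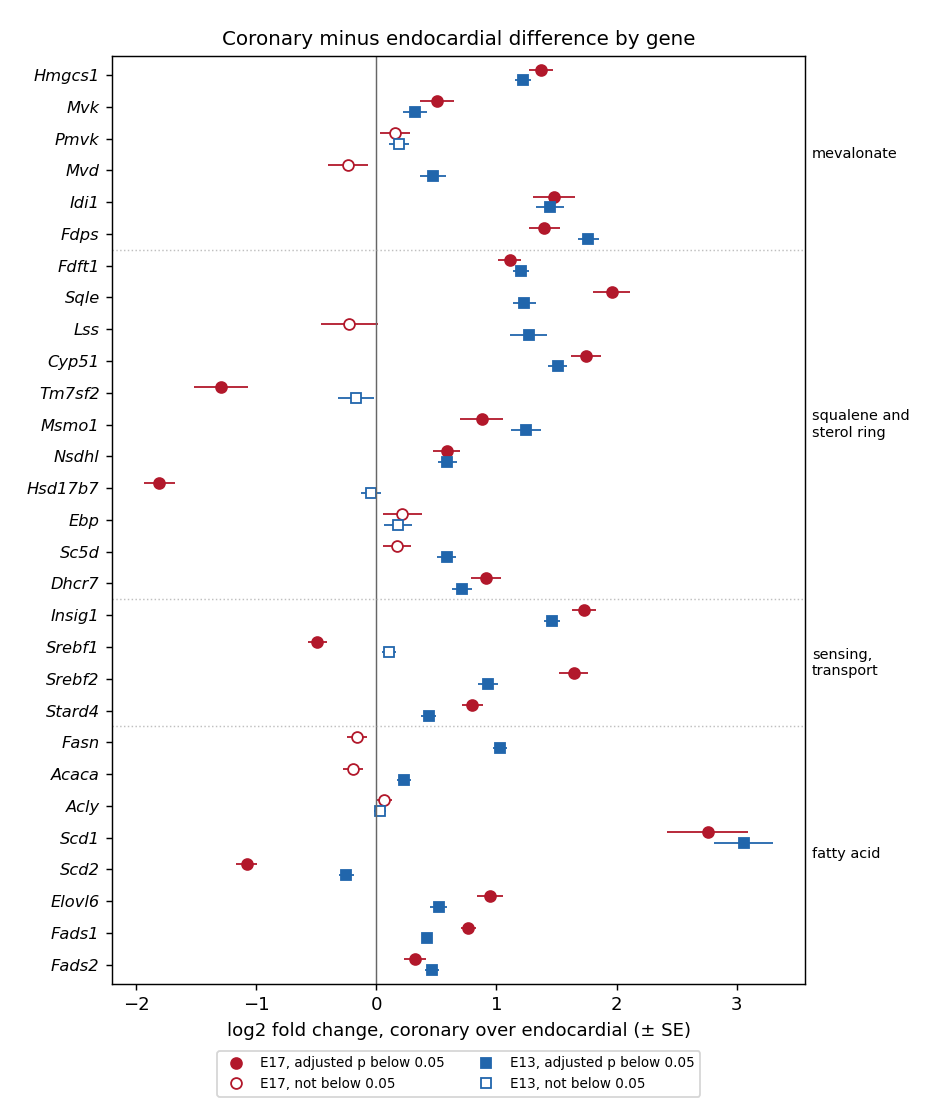
Coronary minus endocardial difference of each of the 29 genes, as log2 fold change ± standard error (x axis), with genes by branch on the y axis. Circles are E17 and squares are E13, and filled symbols passed at an adjusted p under 0.05. Most symbols lie right of 0 at both stages, Scd2 lies left at both, and Hsd17b7 and Tm7sf2 lie near 0 at E13 but left of -1 at E17.

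At E17 the coronary excess was again present for most genes. Of all genes tested, 52.6% passed, 26.5% as higher and 26.1% as lower in coronary cells. Of the 29 genes, 17 were higher and 4 lower (median 0.59, against -0.01 over all genes tested), among them 10 and 2 of the 17 sterol enzymes, 3 and 1 of the 4 sensing and transport genes, and 4 and 1 of the 8 fatty acid enzymes. All 17 that were higher had also been called higher at E13, where 22 were, so they make up 100% of the E17 calls and 77.3% of the E13 calls. Over all genes tested, 2610 were higher at both stages, which is 64.9% of those higher at E17 and 57.1% of those higher at E13. The 17 were Cyp51, Dhcr7, Fdft1, Fdps, Hmgcs1, Idi1, Msmo1, Mvk, Nsdhl, Sqle, Insig1, Srebf2, Stard4, Elovl6, Fads1, Fads2 and Scd1. The 21 genes called at E17 all had groups that did not overlap, with only 2 libraries per group. Without overlap the direction must be the same in both batches. These values are the ones the call rests on, so this is not separate support, and the share over all genes was not counted.

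Sqle led the sterol enzymes at E17. It had 41.97 and 43.1 CPM in the 2 E17 coronary libraries, against 9.39 and 12.6 CPM in the 2 E17 endocardial libraries. The coronary library was far above the endocardial one in both batches (1.96 ± 0.15, edgeR adjusted p = 5.08e-07). Cyp51 had 34.2 and 38.5 CPM in coronary libraries, against 9.93 and 11.9 CPM in endocardial libraries (1.74 ± 0.12, edgeR adjusted p = 2.56e-07). Fdps had 30.9 and 37.4 CPM in coronary libraries, against 12.2 and 13.9 CPM in endocardial libraries (1.40 ± 0.13). Each of these pairs was clearly separated. Idi1, Hmgcs1 and Fdft1 were higher by 1.48 ± 0.17, 1.37 ± 0.10 and 1.11 ± 0.10, and Dhcr7, Msmo1 and Nsdhl by 0.91 ± 0.12, 0.88 ± 0.18 and 0.59 ± 0.11. Mvk was higher by 0.51 ± 0.14, but it did not pass without E17 endocardial replicate 1 (0.36, edgeR adjusted p = 0.106) or without E17 coronary replicate 2 (0.42, adjusted p = 0.078).

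Other sterol enzymes were not higher at E17. Hsd17b7, a C4 demethylation enzyme, had 9.19 and 8.39 CPM in E17 coronary libraries, against 28.98 and 32.4 CPM in E17 endocardial libraries. Both coronary libraries were far below the endocardial ones (-1.80 ± 0.13, edgeR adjusted p = 2.67e-07). Tm7sf2 had 2.74 and 2.70 CPM in coronary libraries, against 7.15 and 6.16 CPM in endocardial libraries, and was also lower (-1.29 ± 0.22, edgeR adjusted p = 0.000399). Lss had 3.63 and 3.35 CPM in coronary libraries, against 2.84 and 5.38 CPM in endocardial libraries. Its endocardial libraries lay on both sides of the coronary ones, and it did not pass (-0.22 ± 0.24, edgeR adjusted p = 0.462). Without E17 endocardial replicate 1 it was lower (-0.62, adjusted p = 0.0143). Mvd had 8.37 and 7.61 CPM in coronary libraries, against 8.13 and 10.7 CPM in endocardial libraries, with overlap (-0.23 ± 0.16). Sc5d had 13.03 and 12.9 CPM in coronary libraries, against 11.02 and 11.99 CPM in endocardial libraries. These stood close together and the gene did not pass (0.17 ± 0.12), nor did Pmvk (0.16 ± 0.12) or Ebp (0.22 ± 0.16), apart from Pmvk without E17 coronary replicate 1 (0.34, edgeR adjusted p = 0.0433).

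Srebf2 and Srebf1 stood on opposite sides at E17. Srebf2 had 159 and 183 CPM in coronary libraries, against 48.9 and 60.5 CPM in endocardial libraries (1.64 ± 0.12, edgeR adjusted p = 2.84e-07). Srebf1 had 63.3 and 71.2 CPM in coronary libraries, against 89.7 and 99.6 CPM in endocardial libraries (-0.49 ± 0.08, edgeR adjusted p = 0.000248). The groups did not overlap for either gene, with Srebf2 higher and Srebf1 lower in coronary cells. Insig1 had 56.2 and 64.7 CPM in coronary libraries, against 17.6 and 18.99 CPM in endocardial libraries, and it was higher by 1.73 ± 0.10. Stard4 had 135 and 151 CPM in coronary libraries, against 79.4 and 85.6 CPM in endocardial libraries, and it was higher by 0.80 ± 0.09.

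The committed fatty acid enzymes had no called population difference at E17. Fasn had 111 and 104 CPM in coronary libraries, against 118 and 122 CPM in endocardial libraries (-0.16 ± 0.08, edgeR adjusted p = 0.122). Acaca had 46.8 and 48.2 CPM in coronary libraries, against 54.8 and 53.9 CPM in endocardial libraries (-0.19 ± 0.08, edgeR adjusted p = 0.0703). In both genes the coronary libraries were slightly below the endocardial ones, without passing. Elovl6 had 21.1 and 20.9 CPM in coronary libraries, against 10.3 and 11.5 CPM in endocardial libraries (0.95 ± 0.11). Fads1 had 108 and 114 CPM in coronary libraries, against 62.5 and 68.4 CPM in endocardial libraries (0.77 ± 0.06). Both of these chain-modifying enzymes were higher in coronary cells, as was Fads2 (0.32 ± 0.09), though Fads2 did not pass without E17 endocardial replicate 2 (0.21, edgeR adjusted p = 0.09). Scd2 had 353 and 304 CPM in coronary libraries, against 684 and 701 CPM in endocardial libraries, well apart and lower (-1.08 ± 0.09, edgeR adjusted p = 6.24e-07). Scd1 remained rare, at 6.06 ± 1.80 CPM in coronary and 0.890 ± 0.0243 CPM in endocardial cells (SD, n = 2 each), and was higher by 2.76 ± 0.34.

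At E17, 12 of 12 cell cycle genes were higher in coronary cells, and their sums were 2568 to 2606 CPM in coronary libraries, against 996 to 1264 CPM in endocardial libraries. The lower of those endocardial sums was that of E17 endocardial replicate 1. This library was also below replicate 2 for 16 of the 17 sterol enzymes, but the share over all genes was not counted and a link was not tested. Of the 8 fibroblast markers, 3 were higher and 2 lower, and of the 7 mural markers 6 were higher. Of the 5 epicardial markers 4 were higher (median 4.67), 2 of the 4 leukocyte markers tested were lower (median -2.29), and 3 of 7 pan-endothelial genes were higher and 3 lower. Their part in the lipid gene differences was not tested. Within batches, 15 and 13 of the 17 sterol enzymes were higher in the coronary library, with median log2 ratios of 0.66 and 0.48. The share of all genes was not counted per batch here either.

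The coronary-minus-endocardial difference was then compared between stages, as the E17 difference minus the E13 difference. Of all genes tested, 32.7% passed, 16.2% as higher and 16.5% as lower. Of the 29 genes, 14 passed, 5 as higher and 9 as lower, with a median of -0.03, against 0.0022 over all genes tested. By branch, 1 sterol enzyme was higher and 5 were lower, 2 sensing and transport genes were higher and 1 was lower, and 2 fatty acid enzymes were higher and 3 were lower. The higher ones were Sqle (0.73 ± 0.18), Srebf2 (0.71 ± 0.14), Elovl6 (0.43 ± 0.13), Stard4 (0.36 ± 0.11) and Fads1 (0.35 ± 0.07), in which the coronary excess was larger at E17. The lower ones fell into separate kinds. In Hsd17b7 (-1.76 ± 0.15, edgeR adjusted p = 5.44e-06), Tm7sf2 (-1.12 ± 0.27) and Srebf1 (-0.60 ± 0.10), a difference that was not called at E13 was lower in coronary cells at E17. In Lss (-1.49 ± 0.28, edgeR adjusted p = 0.00162), Fasn (-1.19 ± 0.10, edgeR adjusted p = 5.14e-06), Mvd (-0.71 ± 0.20), Acaca (-0.42 ± 0.10) and Sc5d (-0.41 ± 0.14), a coronary excess at E13 was not called at E17. In Scd2 (-0.83 ± 0.10), the endocardial excess was larger at E17.

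Several of these calls depended on 1 library or setting. Sqle did not pass without E17 endocardial replicate 1 (0.52, edgeR adjusted p = 0.0678), nor Mvd without E17 endocardial replicate 2 (adjusted p = 0.103) or E17 coronary replicate 2 (adjusted p = 0.0786). Stard4 did not pass without E17 endocardial replicate 1 (adjusted p = 0.0978) or E17 coronary replicate 2 (adjusted p = 0.111). Elovl6 did not pass without E17 endocardial replicate 1 (adjusted p = 0.125), E17 coronary replicate 1 (adjusted p = 0.0676) or E17 coronary replicate 2 (adjusted p = 0.0629). Sc5d was the least stable, failing when any 1 of 9 libraries was left out (edgeR adjusted p up to 0.147, without E17 endocardial replicate 2), with DESeq2 (0.0713) and without the filter on low counts (0.0978). The count of lower sterol enzymes was 3 without E17 endocardial replicate 2. Fdps missed at -0.37 ± 0.15 (edgeR adjusted p = 0.0885) and passed with batch as a replicate block (-0.38, adjusted p = 0.0218) and without E17 coronary replicate 2 (-0.51, adjusted p = 0.0473). Msmo1 passed only without E13 coronary replicate 3 (-0.49, adjusted p = 0.0279). Of the 12 cell cycle genes, 7 had a larger coronary excess at E17 and 0 a smaller one, and 4 of 8 fibroblast markers had a smaller one. The difference was also lower at E17 for 2 of 4 leukocyte markers and higher for 1 of 5 epicardial markers and 5 of 7 pan-endothelial genes. Their part was not tested.

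**Figure D3:**
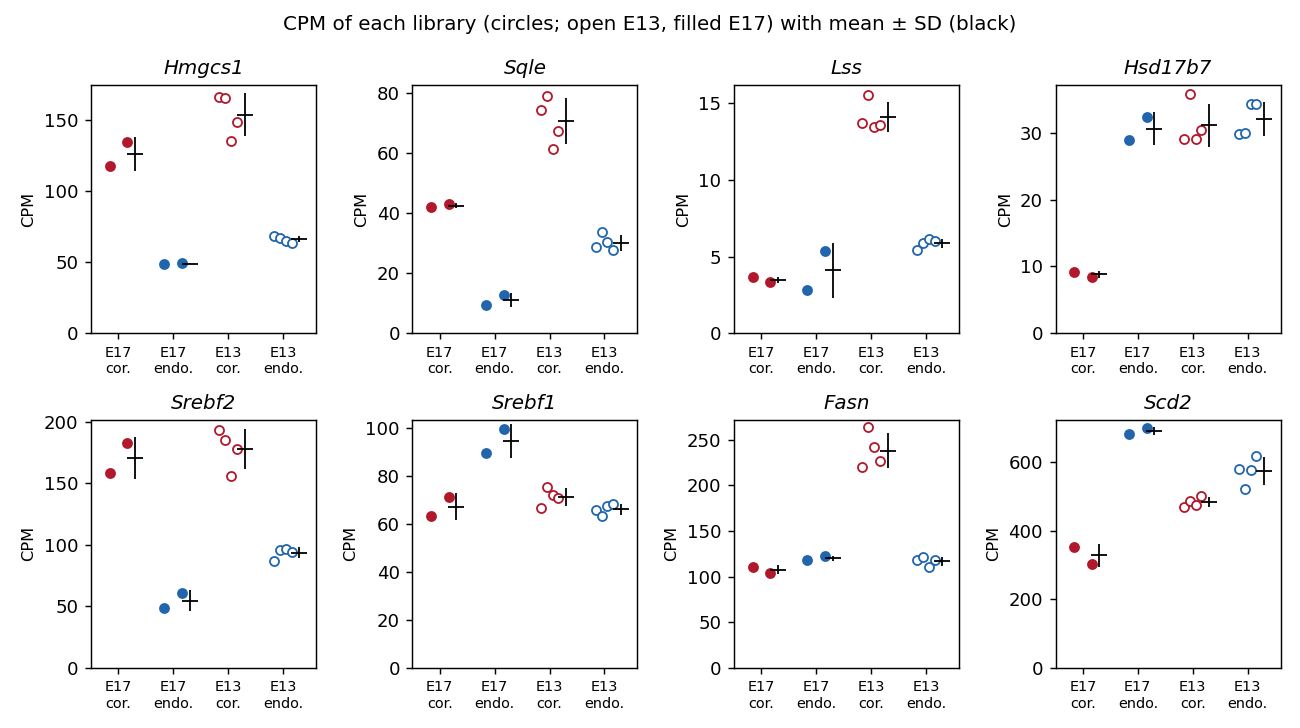
CPM in each library (y axis, linear, starting at 0) by group (x axis) for 8 genes, 1 panel each. Circles are libraries, filled at E17 and open at E13, red for coronary and blue for endocardial cells, and black crosses are the mean ± SD. In Hsd17b7 and Scd2 the E17 coronary points are lowest, in Lss and Fasn the E13 coronary points stand alone above the rest, and in Hmgcs1, Sqle and Srebf2 the E17 endocardial points are lowest.

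Relative to E13, sterol and fatty acid enzymes were lower in E17 coronary cells. In this comparison 50.1% of all genes tested passed, 24.6% as higher and 25.6% as lower. Of the 29 genes, 1 was higher and 18 were lower (median -0.35, against -0.02 over all genes tested). The lower ones were 11 of the 17 sterol enzymes and 7 of the 8 fatty acid enzymes. Lss had 3.63 and 3.35 CPM in E17 coronary libraries, against 13.7, 15.55, 13.46 and 13.6 CPM in E13 coronary libraries. Both E17 libraries were far below the E13 ones (-2.01 ± 0.21, edgeR adjusted p = 7.99e-06). Hsd17b7 had 9.19 and 8.39 CPM in E17 coronary libraries, against 29.2, 35.9, 29.2 and 30.4 CPM in E13 coronary libraries and fell in the same way (-1.83 ± 0.12, edgeR adjusted p = 2e-07). Mvd had 8.37 and 7.61 CPM in E17 coronary libraries, against 20.3, 16.6, 15.98 and 18.4 CPM in E13 coronary libraries (-1.16 ± 0.14). Fasn fell by nearly the same amount (-1.15 ± 0.08). Fdps, Tm7sf2, Fdft1, Fads2, Cyp51, Sc5d and Sqle changed by -1.07, -1.13, -0.96, -0.95, -0.84, -0.76 and -0.73. Falls of -0.64 to -0.29 were seen in Msmo1, Elovl6, Scd2, Fads1, Acly, Acaca and Hmgcs1. Without E13 coronary replicate 3, 13 of the 17 sterol enzymes were lower. Hmgcs1 was not called without E17 coronary replicate 1 (-0.20, edgeR adjusted p = 0.137) or in the fit of the coronary groups alone (adjusted p = 0.0524).

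Stard4 rose with stage in coronary cells. It had 135 and 151 CPM in E17 coronary libraries, against 113, 105, 95.5 and 96.4 CPM in E13 coronary libraries, with no overlap (0.49 ± 0.07, edgeR adjusted p = 0.00014). Insig1 had 56.2 and 64.7 CPM in E17 coronary libraries, against 64.7, 56.8, 57.03 and 63.7 CPM in E13 coronary libraries, which overlapped (-0.0017 ± 0.08). Srebf2 (-0.06 ± 0.10) and Srebf1 (-0.09 ± 0.07) did not pass either. Genes without a call among the enzymes were Mvk, Pmvk, Idi1, Nsdhl, Ebp, Dhcr7 and Scd1. Idi1 was close, at -0.35 ± 0.14 (edgeR adjusted p = 0.0551), and passed without E13 coronary replicate 3 (-0.44, adjusted p = 0.0115), as did Dhcr7 (-0.30, adjusted p = 0.0111). It also passed with DESeq2 (adjusted p = 0.0379), without the low-count filter (0.0384), in the fit of the coronary groups alone (0.044) and without E17 endocardial replicate 1 or 2 (0.0255 and 0.026). Pmvk passed without E17 coronary replicate 2 (-0.44, adjusted p = 0.0154), Nsdhl without E13 coronary replicate 4 (-0.27, adjusted p = 0.0431) and Ebp without E17 coronary replicate 1 (0.45, adjusted p = 0.0402). Of the 12 cell cycle genes 1 was higher and 4 were lower, with sums of 2568 to 2606 CPM at E17 and 2553 to 2736 CPM at E13. Of the 8 fibroblast markers 4 were lower, with sums of 2172 and 4792 CPM at E17 and 2630 to 6979 CPM at E13, and 6 of 7 pan-endothelial genes were higher and 1 lower. Of the 7 mural markers 3 were higher and 1 lower, of the 5 epicardial markers 3 were higher and 1 lower, and 2 of 4 leukocyte markers were lower. The part of these shifts was not tested.

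In endocardial cells fewer genes changed with stage. Of all genes tested, 31.8% passed, 16.2% as higher and 15.6% as lower in E17 than in E13 endocardial cells. Of the 29 genes, 2 were higher and 14 lower (median -0.33, with the median over all genes tested at 0). The lower ones were 8 of the 17 sterol enzymes, 2 of the 4 sensing and transport genes and 4 of the 8 fatty acid enzymes. Sqle had 9.39 and 12.6 CPM in E17 endocardial libraries, against 28.8, 33.8, 30.2 and 27.7 CPM in E13 endocardial libraries (-1.46 ± 0.14, edgeR adjusted p = 1.36e-05). Cyp51 had 9.93 and 11.9 CPM in E17 endocardial libraries, against 20.9, 25.1, 22.5 and 23.4 CPM in E13 endocardial libraries (-1.08 ± 0.11). Elovl6 had 10.3 and 11.5 CPM in E17 endocardial libraries, against 21.5, 24.4, 23.6 and 20.2 CPM in E13 endocardial libraries (-1.04 ± 0.10). In all 3 the E17 libraries lay well below the E13 ones. Fdft1 (-0.86), Fads2 (-0.81), Srebf2 (-0.77), Fdps (-0.71), Fads1 (-0.66), Hmgcs1 (-0.44) and Acly (-0.33) were also lower.

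Smaller falls in endocardial cells depended on a library. Mvd (-0.45 ± 0.14) did not pass without E17 endocardial replicate 1 (edgeR adjusted p = 0.301), E13 endocardial replicate 2 (0.0584) or E13 endocardial replicate 3 (0.0588). Sc5d (-0.35 ± 0.10) and Dhcr7 (-0.42 ± 0.11) did not pass without E17 endocardial replicate 1 (adjusted p = 0.161 and 0.152), and the count of lower sterol enzymes was then 5. Insig1 (-0.27 ± 0.09, edgeR adjusted p = 0.0406) did not pass without any 1 of 5 of the 6 endocardial libraries, with an adjusted p of up to 0.265 without E17 endocardial replicate 1. Lss and Idi1 passed without E17 endocardial replicate 2 (-1.04, adjusted p = 0.00181, and -0.69, adjusted p = 0.0146), and both with DESeq2 (adjusted p = 0.0485 and 0.0461). Idi1 also passed without E13 coronary replicate 3 (adjusted p = 0.0413).

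Srebf1 and Scd2 rose with stage in endocardial cells. Srebf1 had 89.7 and 99.6 CPM in E17 endocardial libraries, against 65.7, 63.4, 67.4 and 68.6 CPM in E13 endocardial libraries, well apart (0.51 ± 0.07, edgeR adjusted p = 0.000148). Scd2 had 684 and 701 CPM in E17 endocardial libraries, against 580.3, 522, 578 and 620.1 CPM in E13 endocardial libraries (0.27 ± 0.07, edgeR adjusted p = 0.0137). It did not pass without E17 endocardial replicate 1 (adjusted p = 0.0625) or replicate 2 (0.0962). Scd1 stood at 0.80 ± 0.33 and passed only without E13 endocardial replicate 3 (1.04, edgeR adjusted p = 0.031). Fasn, Acaca, Hsd17b7 and Tm7sf2, all lower with stage in coronary cells, did not pass in endocardial cells (0.04, 0.13, -0.07 and -0.0064). In all, 11 genes were lower with stage in both populations (Acly, Cyp51, Elovl6, Fads1, Fads2, Fdft1, Fdps, Hmgcs1, Mvd, Sc5d and Sqle), which is 78.6% of the 14 lower in endocardial and 61.1% of the 18 lower in coronary cells. Over all genes tested, 1143 were lower in both, 48.3% of those lower in endocardial and 29.5% of those lower in coronary cells. Both comparisons carry the same differences of genotype, tamoxifen and batch between stages. Each also carries a change of gate, which was not the same for coronary and endocardial cells. Cell cycle genes moved with this comparison, 11 of 12 being lower, with sums of 996 to 1264 CPM at E17 and 1580 to 1904 CPM at E13, and 4 of 8 fibroblast markers were higher and 1 lower. Of the 4 leukocyte markers tested 3 were higher (median 1.81), with sums of 13.48 and 19.48 CPM at E17 and 7.45 to 11.48 CPM at E13, and 0 of 5 epicardial markers passed. Their part was not tested.

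**Figure D4:**
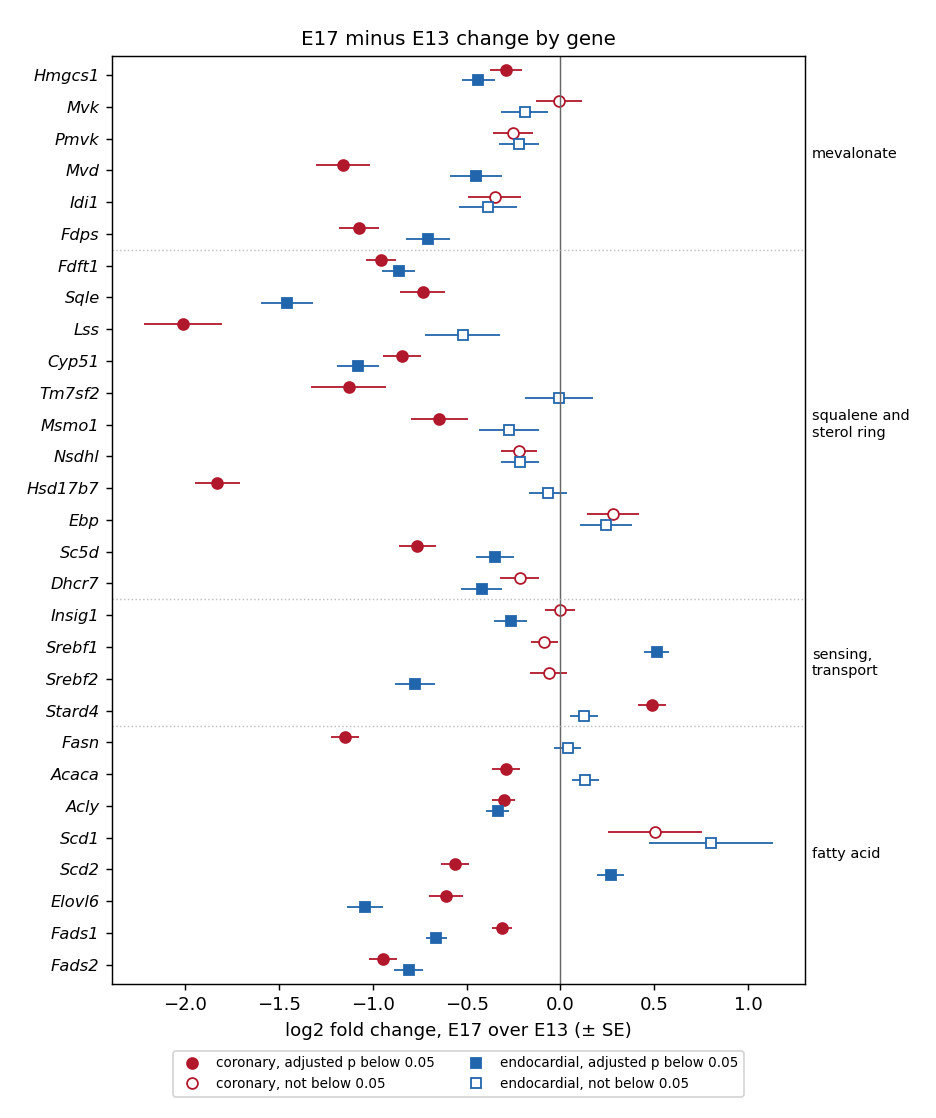
E17 minus E13 difference of each of the 29 genes as log2 fold change ± standard error (x axis), with genes by branch on the y axis. Circles are coronary and squares are endocardial cells, and filled symbols passed at an adjusted p under 0.05. Most symbols lie left of 0, with Lss and Hsd17b7 farthest left in coronary cells and Sqle in endocardial cells, and Scd2 lies on opposite sides of 0 in the 2 populations.

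Further genes of the pathway were read from lists of known roles. Of the other sterol enzymes 4 of 5 were tested, with 3 higher and 1 lower in coronary cells at E13, 1 higher at E17 and 3 lower with stage in each population. The shares of all genes tested were 30.1% higher and 29.9% lower at E13, and 26.5% and 26.1% at E17. With stage, 25.6% were lower in coronary and 15.6% in endocardial cells. With 4 genes tested, all of these counts, the 1 of 4 at E17 included, are too few to set against those shares. Acat2, cytosolic thiolase, was higher at E13 (0.73 ± 0.11) and lower with stage in coronary (-1.42 ± 0.15) and endocardial cells (-0.93 ± 0.15). Of the 4 SREBP processing genes, 0 were higher and 2 lower in coronary cells at E17, and 0 were higher and 1 lower at E13. With 4 genes these counts are too few to set against the shares of all genes. Scap was slightly lower at E17 (-0.22 ± 0.07) and E13 (-0.13 ± 0.05). Insig2, the SREBP retention partner of Insig1, was higher with stage in coronary (0.61 ± 0.10) and endocardial cells (0.89 ± 0.10), opposite in sign to most enzymes.

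Uptake genes were mixed, and most efflux genes were higher at E17 than at E13. Of the 8 uptake and lysosomal genes, 3 were higher and 1 lower in coronary cells at E13, and 4 and 3 at E17. Of all genes tested, 30.1% were higher and 29.9% lower at E13, and 26.5% and 26.1% at E17. Lipa, the lysosomal acid lipase, was lower in coronary cells at E17 (-1.07 ± 0.06) and E13 (-0.85 ± 0.04), and Scarb1, the high density lipoprotein receptor, was higher at E17 (1.19 ± 0.14). Of the 7 efflux and LXR genes, 0 were higher and 4 lower in coronary cells at each stage, while with stage 5 were higher and 2 lower in coronary cells and 6 higher and 1 lower in endocardial cells. Of all genes tested, 24.6% were higher and 25.6% lower with stage in coronary cells, and 16.2% and 15.6% in endocardial cells. The LXR targets Abca1 and Abcg1, both sterol exporters, rose with stage in coronary (2.08 ± 0.11 and 1.37 ± 0.14) and endocardial cells (1.07 ± 0.11 and 1.20 ± 0.14). Mylip, an LXR-induced ubiquitin ligase, rose by 1.53 ± 0.09 in coronary and 1.57 ± 0.09 in endocardial cells and was lower in coronary cells at E17 (-1.03 ± 0.11) and E13 (-0.99 ± 0.08). Apoe differed most, averaging 67.9 CPM in E17 coronary cells, against 1822 CPM in E17 endocardial cells (-4.75 ± 0.25, edgeR adjusted p = 1.95e-08). At E13 it averaged 308 CPM in coronary and 971 CPM in endocardial cells (-1.66 ± 0.15).

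Of 20 other genes of fatty acid synthesis and elongation 18 were tested, with 7 higher (38.9%) and 4 lower (22.2%) in coronary cells at E13 and 4 and 4 (22.2% each) at E17, against 30.1% higher and 29.9% lower at E13 and 26.5% and 26.1% at E17 over all genes tested. Me1, the malic enzyme that supplies NADPH, changed sides: it averaged 10.4 CPM in E17 coronary and 43.9 CPM in E17 endocardial cells (-2.08 ± 0.23), and 35.2 CPM in E13 coronary and 11.3 CPM in E13 endocardial cells (1.64 ± 0.16). The difference between stages was -3.71 ± 0.29 (edgeR adjusted p = 2.37e-06), in the direction of Fasn. Slc25a1, the mitochondrial citrate carrier, was higher in coronary cells at E13 (0.66 ± 0.07), did not pass at E17 (-0.10 ± 0.10) and differed between stages by -0.76 ± 0.12. Hacd3, a dehydratase of very long chain elongation, was lower in coronary cells at E13 (-0.43 ± 0.05) and more so at E17 (-1.67 ± 0.08), with a change of -1.23 ± 0.10. Mid1ip1, which promotes polymerization of acetyl-CoA carboxylase, was higher in coronary cells at E17 (1.62 ± 0.10) and E13 (1.37 ± 0.07). Of the 5 acyl-CoA synthetases 4 were tested, with 3 higher in coronary cells at each stage and 1 lower at E13. Acsl1, which activates long-chain fatty acids, was higher by 1.69 ± 0.15 at E17 and 0.43 ± 0.10 at E13, a change of 1.27 ± 0.18 (edgeR adjusted p = 0.000215).

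Some counts are less certain than others. The libraries do not mark strand, so reads in shared exons of overlapping genes cannot be assigned by strand. Fdft1 overlaps Ctsb, Cyp51 overlaps Akap9 and Srebf1 overlaps Rai1 on the opposite strand, and Tm7sf2 overlaps Vps51 on the same strand. The partners had mean expected counts of 6732, 2223, 1926 and 723 per library, against 548, 722, 1383 and 113 for the 4 genes in that order. Their own differences between coronary and endocardial cells were -0.41, -0.32, -0.30 and 0.04 at E17, and 0.05, -0.38, -0.08 and -0.10 at E13. Akap9 was lower in coronary cells at both stages, where Cyp51 was higher, and Ctsb was lower at E17 and not called at E13 (edgeR adjusted p = 0.397), where Fdft1 was higher at both. Rai1, like Srebf1, was lower in coronary cells at E17. With stage, Ctsb, Akap9, Rai1 and Vps51 changed by -0.23, -0.01, -0.52 and -0.02 in coronary cells. In endocardial cells they changed by 0.23, -0.07, -0.31 and -0.17. Akap9 passed in neither population and Vps51 only in endocardial cells. Ctsb was lower with stage in coronary cells, like Fdft1, but higher in endocardial cells, where Fdft1 was lower. Rai1 was lower in endocardial cells, where Srebf1 was higher. Counts that are not whole are estimates in which reads were divided. At a tolerance of 0.005, 7 of the 29 genes had such counts in all 12 libraries (Idi1, Fdft1, Tm7sf2, Scd1, Scd2, Elovl6 and Fads2), 12 had them in some libraries (Acaca, Cyp51, Dhcr7, Fdps, Hsd17b7, Lss, Msmo1, Mvk, Sc5d, Sqle, Srebf1 and Stard4) and 10 in none.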

How the data were processed

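Poly(A) RNA of sorted mouse heart endothelial cells was sequenced as single reads from NEBNext Ultra libraries made with 200 ng RNA, per the labels' protocols. The authors deposited expected counts for each gene; CASAVA 1.8.2, cutadapt 1.3, RSEM 1.2.3 and build GRCm38 are named in the submitters' processing notes, with settings not given in the sources used here. Of the values, 18.3% are not whole; all were rounded. Symbols were matched to 40254 identifiers. Genes were kept by filterByExpr (minimum count 10, total 15) and tested with edgeR 4.0.16 in R 4.3.3 by the quasi-likelihood test with TMM scaling, in 1 fit of 4 group means over 12 libraries (8 residual degrees of freedom, common biological coefficient of variation 0.126), with Benjamini-Hochberg adjustment. DESeq2 1.42.0 and other settings were alternatives. Full values are given for genes that passed the difference between stages and, per comparison, the 3 largest rises and falls with at least 10 CPM, and other pathway lists name up to 3 genes of smallest adjusted p, besides examples chosen after their values were seen. The genes and lists were chosen with earlier results of these data known. Libraries of 1 batch label are paired by that label. Over 9481 genes, deviations from group means correlated at 0.31 to 0.647 within E13 batches and at -0.495 to 0.376 across them, and at 0.353 within E17 batches, which with 2 libraries a group is 1 value. Promoter windows are from RefSeq. Results for some further genes are not reported here.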

Additional observations from a re-analysis of the deposited data

Results flagged for a closer look

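In 14 of the 29 genes the coronary-minus-endocardial difference changed between stages by edgeR's test of the difference itself, given here as log2, E17 minus E13. The sterol enzymes were Hsd17b7 (-1.76), Lss (-1.49), Tm7sf2 (-1.12), Mvd (-0.71), Sc5d (-0.41) and Sqle (0.73). The sensing and transport genes were Srebf2 (0.71), Srebf1 (-0.60) and Stard4 (0.36). The fatty acid enzymes were Fasn (-1.19), Scd2 (-0.83), Acaca (-0.42), Elovl6 (0.43) and Fads1 (0.35). The same test called 32.7% of all genes tested.

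In groups of 4 libraries, 2 of 58 gene and group combinations held a library far from the rest (chance gives about 1 in 20). Lss had 15.55 CPM in E13 coronary replicate 2, against 13.46 to 13.74 CPM in the other E13 coronary libraries. Acly had 262 CPM in E13 endocardial replicate 2, against 279 to 281 CPM in the other E13 endocardial libraries.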

How the results depend on the processing

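Over the 29 genes and 5 comparisons, the alternatives that kept all libraries (DESeq2, its size factors, no filter on low counts, only the groups compared, replicate block) gave 638 fold changes, of which 622 kept direction and call, 3 lost the call, 9 gained one and 4 changed sign. Leaving out 1 library gave 1740, of which 1658 kept both, 33 lost the call, 20 gained one and 29 changed sign. No called gene changed sign in either set. The replicate block (batch as a term) changed 1 call, that of Fdps for the change between stages (-0.38, adjusted p = 0.0218). Among the 29 genes it changed no other call in the 3 comparisons for which it was fitted, the population difference at each stage and its change. Batches lie within stages, so no block could be fitted for E17 against E13 within a population. The block gave 13 higher sterol enzymes at E13 and 10 at E17. DESeq2's size factors moved the median of all genes by at most 0.03.

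With only the groups compared, Insig1 in coronary cells with stage was 0.0043 and Tm7sf2 in endocardial cells 0.0015. Nsdhl for the change between stages was 0.00085 with DESeq2 and 0.0021 with no filter. Leaving out 1 library gave -0.095 to 0.014 for Hsd17b7 at E13, and at E17 -0.027 to 0.34 for Pmvk and -0.62 to 0.30 for Lss. With stage in coronary cells it gave -0.094 to 0.076 for Mvk, -0.11 to 0.096 for Insig1 and -0.17 to 0.035 for Srebf2, and in endocardial cells -0.12 to 0.092 for Tm7sf2 and -0.15 to 0.011 for Hsd17b7. For the change between stages it gave -0.22 to 0.13 for Pmvk, -0.22 to 0.34 for Idi1, -0.095 to 0.093 for Nsdhl, -0.16 to 0.20 for Ebp and -0.017 to 0.080 for Acly.

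Among counts, leaving out 1 library gave 0 to 1 higher sterol enzymes with stage in coronary cells. With stage in endocardial cells it gave 5 to 10 lower sterol enzymes, 1 to 2 lower sensing genes and 0 to 2 higher fatty acid enzymes. For the change between stages it gave 0 to 1 higher and 3 to 6 lower sterol enzymes, 1 to 2 higher sensing genes and 1 to 2 higher fatty acid enzymes. The causes were not tested. Groups of 2 libraries at E17 borrow the spread of all groups, and a lone library is then assumed to vary like the others. Scd1, at under 1 CPM in endocardial cells, is the least precise.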
